A study of Homo sapiens with 2 samples.

Results

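The insulin-like growth factor (IGF) ligands, receptors and binding proteins were examined in lung fibroblasts with and without knockdown of periostin. The family was taken as a fixed list of 10 genes, the ligands IGF1 and IGF2, the receptors IGF1R and IGF2R and the binding proteins IGFBP1 to IGFBP6, out of 21743 genes that could be named on the array. All 10 genes had at least 1 probe that was well above background on at least 1 array. The cells were MRC-5, a cell line of fibroblasts from human fetal lung, transfected either with control siRNA or with siRNA against periostin (POSTN), the latter at 10 nM for 48 h. The dose of control siRNA on the arrays is not given in the sources used here. RNA from each condition was hybridized to 1 single-colour Agilent array, both on the same slide. With 1 array per condition the conditions could not be tested against each other, and every difference below is that between 1 RNA sample and 1 other. Errors are SDs over spots for a probe printed 10 times and, for a probe printed once, the error that the scanner software propagates for a spot. Variation from culture to culture is in neither of them.

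IGF1 and IGF2 are secreted growth factors that act through IGF1R, a receptor tyrosine kinase that signals to lipid kinases and AKT and favours growth, survival and entry into the cell cycle. IGF2R has no kinase domain and takes up IGF2 for breakdown in lysosomes. The binding proteins hold most of the IGF outside cells, extend its life, and either keep it from the receptor or release it when proteases cleave them, and lung fibroblasts are known both to secrete them and to respond to IGF.

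Signals were brought to a common 75th percentile of spots, and every ratio, given on the log2 scale, has periostin siRNA over control siRNA. The targeted gene POSTN read 2638 under control siRNA and 279.8 under its own siRNA, and had a log2 ratio of -3.24 ± 0.20. All 10 fibroblast markers, among them COL1A1, COL1A2 and VIM, were well above background on both arrays, with log2 ratios from -0.90 to 0.83. The epithelial markers CDH1 and KRT5, the endothelial marker PECAM1 and the B cell marker MS4A1 were below background on both. The endothelial KDR passed under control siRNA alone, at 9.79 against 1.93 with periostin siRNA. The immune CD3E passed under periostin siRNA alone, at 9.55 against 7.25 with control siRNA. The remaining markers of these lists that could be named were well above background on both arrays. With control siRNA and periostin siRNA, the endothelial CDH5 read 49.5 and 46.5, VWF 72.1 and 79.8, and the epithelial SFTPC 33.8 and 53.3. The immune PTPRC read 17.6 and 25.1, and CD14 287 and 549. Over each whole list, the signals of the 5 epithelial markers summed to 3120 under control siRNA against 4459 under periostin siRNA, most of it from KRT18, and EPCAM among them read 34.6 and 135, 3.90-fold higher. The sum was 133 and 130.2 for the 4 endothelial markers, and 1843 and 3036 for the 5 immune markers that could be named, most of it from CD68. For the 4 smooth muscle markers it was 6479.8 and 15579, with ACTA2 2.11-fold and CNN1 2.82-fold higher. DES among them read 274 and 313, a log2 ratio of 0.19, and MYH11 was below background on both arrays, at 2.85 and 8.27. The part that any of these markers has in the ratios below was not tested. In RNA of a whole culture, fewer cells that express a gene and less RNA per cell cannot be told apart.

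The largest ratio of the family was that of the binding protein IGFBP1, the only member past 3-fold, the threshold of the study. IGFBP1 was 13.6-fold lower and IGFBP3 2.90-fold lower with periostin siRNA, whereas IGFBP2 was 1.54-fold higher. Past 3-fold were thus 1 member on the lower side and 0 on the higher side. Among the 16052 genes with a value, the share past 3-fold was 2.75% on the lower side and 3.37% on the higher side. By their brightest probes, 3 members were lower by more than 2-fold, IGFBP1, IGFBP3 and IGF1, against 6.42% of all genes. For IGF1 this was a bound from a probe near background, and its other probe was at least 1.88-fold higher. Higher by more than 2-fold by their brightest probes were 0 members, against 7.97% of all genes. Of the 9 members well above background on both arrays, 6 had a log2 ratio below 0 and 3 above, with a median of -0.47, while the median over the 14957 genes measured in this way was 0.05 and 45.7% of them were below 0.

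**Figure D1:**
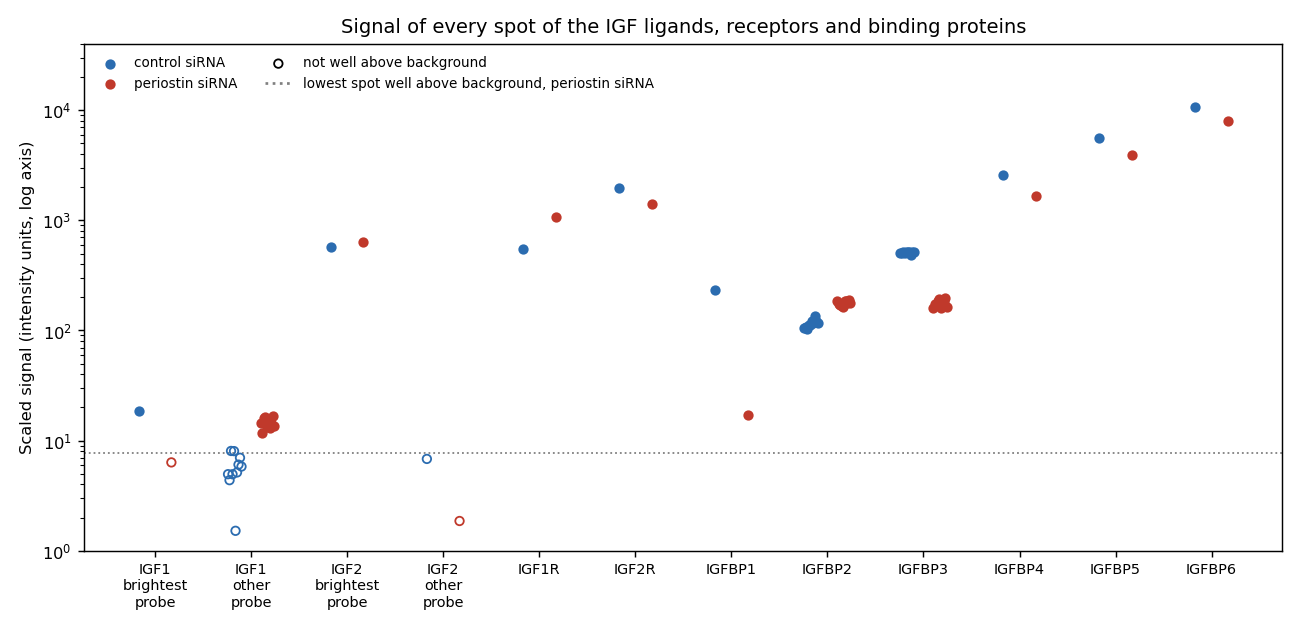
Scaled signal (log axis) of every spot of the 12 probes of the 10 genes with control siRNA (blue) and periostin siRNA (red), open circles being spots not well above background. Signals of different probes are not comparable with each other. IGFBP1 lies at 232 and 17.1, all spots of IGFBP3 are lower with periostin siRNA, and both IGF1 probes lie close to background.

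Among the ligands, IGF2 gave a firm signal and a ratio close to 0. Its brightest probe read 573 with control siRNA and 630.0 with periostin siRNA. The log2 ratio was 0.14 ± 0.20, a difference smaller than the error of a single spot. A second IGF2 probe was below background on both arrays, at 6.81 and 1.86, and gave no ratio.

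IGF1 was near background and its direction could not be given. The brightest of its probes, printed once, read 18.4 with control siRNA and 6.33 with periostin siRNA, where it was not well above background. Set against 7.77, the dimmest spot that passed as well above background on that array, this was at least 2.37-fold lower, a bound that was -0.23 on the log2 scale under normexp, a model-based background correction run here with an offset of 50. The other probe, printed 10 times, pointed the opposite way. Its spots ranged from 1.51 to 8.05 with a median of 5.47 on the control siRNA array, where 0 of the 10 were well above background. On the periostin siRNA array they ranged from 11.8 to 16.7 with a median of 14.0, and all 10 were well above background. The mean over this probe was at least 1.88-fold higher with periostin siRNA. Both probes carry the same RefSeq transcript in the array design, and which stretch of it each one reads was not examined here.

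The receptors differed in direction. IGF1R, the signalling receptor, read 554 with control siRNA and 1063 with periostin siRNA. It was 1.92-fold higher, with a log2 ratio of 0.94 ± 0.20. This was the highest ratio of the family by its brightest probes, and 1423 of the 16052 genes had a higher one. IGF2R, the clearance receptor, read 1951 and 1404, a log2 ratio of -0.47 ± 0.20 or 1.39-fold lower, and 2795 genes had a lower one. Each receptor was measured by 1 spot. The 250 bases before the RefSeq start of IGF1R are shown because it had the highest ratio of the family (GRCh38.p14, chr15:98648289-98648538, plus strand; capitals mark the GC box GGGCGG or its reverse complement CCGCCC).
IGF1R: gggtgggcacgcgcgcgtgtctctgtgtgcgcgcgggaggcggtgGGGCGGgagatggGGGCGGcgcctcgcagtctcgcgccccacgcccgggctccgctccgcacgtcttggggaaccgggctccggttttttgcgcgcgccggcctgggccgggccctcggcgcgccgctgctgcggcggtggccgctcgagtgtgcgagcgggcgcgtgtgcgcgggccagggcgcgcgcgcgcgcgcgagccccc
This stretch holds 48 CpG dinucleotides and 81.2% G and C, against a median of 58.0% over 35116 RefSeq promoters, and 97.7% of those had a lower share. The GC box, the letters that SP1-type factors are known to bind, was found 2 times in it and at least once in 42.6% of all promoters.

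IGFBP1, which in the body is made mainly by liver and decidua and is lowered by insulin, had the ratio farthest from 0 in the family. Its single spot read 232 with control siRNA and 17.1 with periostin siRNA. On each array it was well above background, and it carried no outlier flag. The log2 ratio was -3.76 ± 0.25, and 43 of the 16052 genes had a lower one. The size depended on how background was removed. Under normexp the log2 ratio was -2.00, still past 3-fold.

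IGFBP3, the main carrier of IGF in blood and a product of cultured fibroblasts, was measured by 10 spots. They ranged from 486 to 520.2 with a median of 515 under control siRNA, and from 161 to 197 with a median of 174 under periostin siRNA. Each of the 10 was lower with periostin siRNA. The log2 ratio was -1.54 ± 0.11 (SD over 10 spots), with 474 genes lower still, and single spots lay between -1.67 and -1.40. The threshold of 3-fold corresponds to -1.58, so 4 of the 10 spots were past it and their mean was not. Scaling on the median of spots in place of the 75th percentile gave -1.67, past 3-fold, and the normexp correction gave -1.26.

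**Figure D2:**
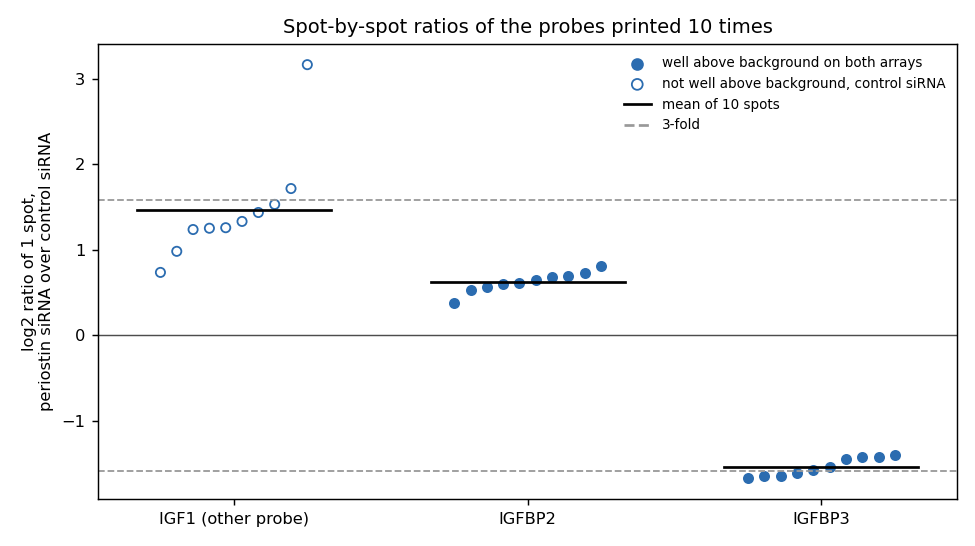
Log2 ratio of each of the 10 spots of the 3 probes of the family that were printed 10 times, in order of size, with their mean (black line) and the 3-fold thresholds (dashed). All spots of IGFBP3 lie between -1.67 and -1.40 around the threshold, those of IGFBP2 between 0.37 and 0.81, and those of the IGF1 probe, at background level on the control siRNA array, spread from 0.74 to 3.17.

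IGFBP2, a binding protein prominent in fetal tissue, was the only one of the 6 with a higher signal. Its 10 spots ranged from 103 to 137 with a median of 115 with control siRNA. With periostin siRNA they ranged from 163 to 188 with a median of 177. The log2 ratio was 0.62 ± 0.12 (SD over 10 spots), and 2593 genes had a higher one.

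IGFBP4, IGFBP5 and IGFBP6 were moderately lower. IGFBP4, an inhibitory binding protein and the main substrate of the protease PAPPA, read 2571 with control siRNA and 1658 with periostin siRNA, or -0.63 ± 0.20 on the log2 scale. IGFBP5, which binds extracellular matrix, read 5607 and 3894, with -0.53 ± 0.20. IGFBP6, which prefers IGF2 to IGF1, read 10635 and 7921, with -0.43 ± 0.20. The ratios differed from each other by about the error of 1 spot and were not ranked, and between 2004 and 3097 of the 16052 genes were lower still. Each rested on 1 spot, and each was below 0 under all 10 alternative settings run for it. Of these settings, other rules for probes and spots could not change a gene measured by 1 spot. The deposited table held the same signals times 1 factor per array.

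**Figure D3:**
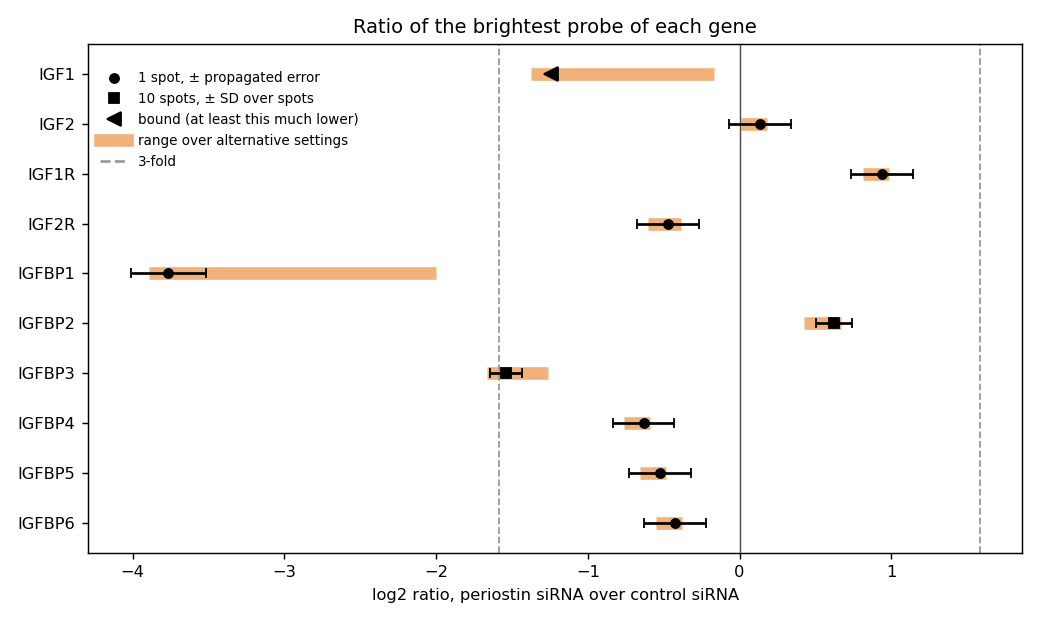
Log2 of the signal with periostin siRNA over that with control siRNA for the brightest probe of each gene, with the propagated error of 1 spot (circles) or the SD over 10 spots (squares), and the range over the alternative settings (orange). IGFBP1 is past 3-fold (dashed) under all of them, IGFBP3 sits at the line, and the arrow of IGF1 is a bound from 1 of its 2 probes.

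**Figure D4:**
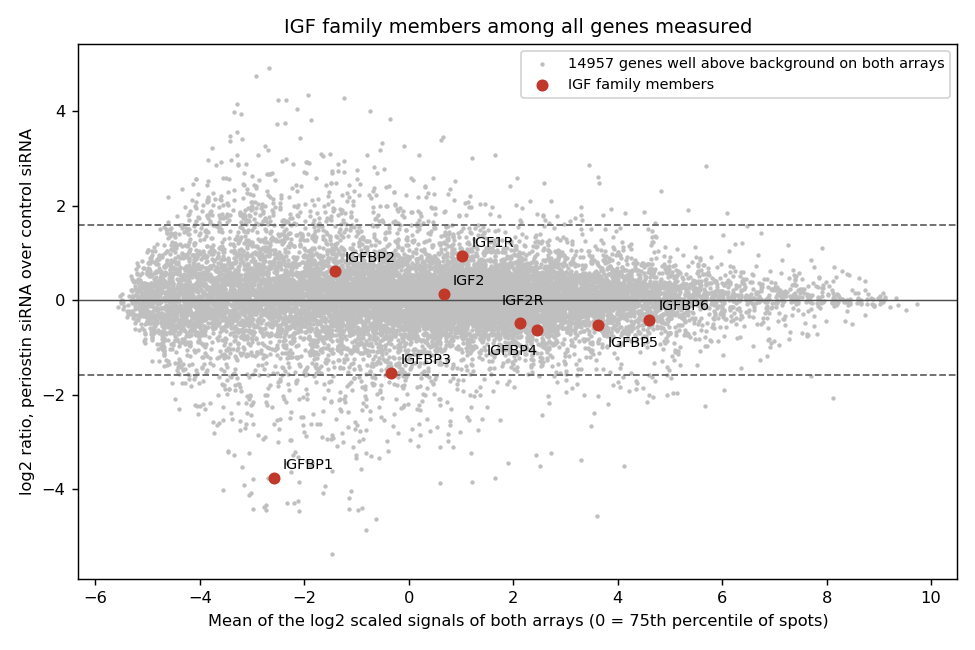
Log2 ratio against the mean log2 scaled signal of both arrays for the 14957 genes well above background on both (grey) and the 9 family members among them (red), with 3-fold as dashed lines. IGFBP1 is the only member outside the dashed lines, IGFBP3 lies just inside the lower one at -1.54, and the other 7 lie between -0.63 and 0.94.

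The spread behind these single spots can be read from the probes printed 10 times that were well above background in every spot. Over the 667 such probes the SD of the log2 ratio between spots was 0.12. It was 0.24 among the dimmest 134 and 0.05 among the brightest 134. The spots of an array share 1 RNA sample. Ranges that lie apart, as given above for the 10 spots of IGF1, IGFBP2 and IGFBP3, thus show only that the arrays differ. How many other probes printed 10 times separate in this way was not counted.

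Some of the binding protein genes lie side by side in the genome. In the RefSeq order of protein-coding genes IGFBP1 and IGFBP3 are direct neighbours on chromosome 7, and both were lower, at -3.76 and -1.54. IGFBP2 and IGFBP5 are direct neighbours on chromosome 2, and there the ratios had opposite signs, at 0.62 and -0.53. The promoter of IGFBP3 is shown because it had the lowest ratio of the members with a promoter entry. That of IGFBP4 is shown because it was the only one with the exact TATA box letters searched for. Both are the 250 bases before the RefSeq start in GRCh38.p14, IGFBP3 at chr7:45921273-45921522 on the minus strand and IGFBP4 at chr17:40443200-40443449 on the plus strand, with capitals for the GC box (GGGCGG or CCGCCC) and the TATA box (TATAAA or its reverse complement TTTATA).
IGFBP3: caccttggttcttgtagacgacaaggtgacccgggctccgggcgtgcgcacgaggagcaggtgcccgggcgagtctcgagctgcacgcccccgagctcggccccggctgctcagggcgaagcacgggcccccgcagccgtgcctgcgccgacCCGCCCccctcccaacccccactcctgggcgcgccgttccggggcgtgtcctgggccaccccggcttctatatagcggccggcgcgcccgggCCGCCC
IGFBP4: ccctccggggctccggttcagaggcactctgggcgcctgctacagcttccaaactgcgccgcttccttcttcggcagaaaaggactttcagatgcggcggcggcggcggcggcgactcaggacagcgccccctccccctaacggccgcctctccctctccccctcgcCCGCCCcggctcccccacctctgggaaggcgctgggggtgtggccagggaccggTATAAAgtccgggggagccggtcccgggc
IGFBP3 holds 2 GC boxes, the nearer of which begins 6 bases before the start, with 76.0% G and C. IGFBP4 holds 1 GC box and a TATA box that begins 29 bases before the start, a motif present in 10.7% of all promoters, with 71.6% G and C. The promoter of IGF1R, printed above, holds GC boxes and neither TATAAA nor TTTATA. Variants of these letters were not searched for, and the IGFBP3 stretch holds the letters tatata. Promoters were found for 8 of the 10 members, with 11 starts in all, and not for IGFBP1 and IGF2. The letters CAAAACA or TGTTTTG, the core of insulin response elements, were in 0 of these 11 stretches, which do not include IGFBP1, and in 4.30% of all promoters. GTAAACA or TGTTTAC, a motif of FOXO factors, was in 1 IGF1 start and in IGFBP6, and in 2.98% of all promoters. Both strands were searched, the matches in the printed stretches did not overlap, and a match of letters is a description of the sequence only.

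The rest of the pathway was described with 38 other genes, of which 33 had a value. Of these, 2 were lower by more than 3-fold, STC1 and ADAM12, and 0 were higher, against the 2.75% and 3.37% of all genes. The log2 ratio was below 0 for 13 and above 0 for 20, with a median of 0.12 that became -0.0054 with scaling on the median of spots. The median over all genes was 0.06.

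The largest ratios lay among the proteases that cleave binding proteins and the inhibitors of these proteases. PAPPA, the protease that cleaves IGFBP4 and so frees IGF, read 7466 with control siRNA and 2730 with periostin siRNA. This was 2.73-fold lower, with a log2 ratio of -1.45 ± 0.20. STC1, a secreted inhibitor of PAPPA, read 526 and 61.2, 8.59-fold lower with a log2 ratio of -3.10 ± 0.21, and 86 genes had a lower one. Under normexp its log2 ratio was -2.28, still past 3-fold. STC2, the related inhibitor that binds PAPPA covalently, went the other way, from 795 to 1326, with 0.74 ± 0.20. ADAM12, a protease that cleaves IGFBP3 and IGFBP5, read 244 and 74.8 by its brightest probe, a log2 ratio of -1.70 ± 0.21 that was past 3-fold, but its 2 dimmer probes gave -0.97 and -0.41. It was not past 3-fold under normexp, at -1.10, or as the mean over its probes, at -1.03. HTRA1, a serine protease that cleaves IGFBP5, had a log2 ratio of 0.61 ± 0.20, and PAPPA2 was below background on both arrays.

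Of the receptors related to IGF1R, INSR, the insulin receptor, read 106 with control siRNA and 227 with periostin siRNA, and its log2 ratio was 1.10 ± 0.21. IGF1R and INSR, which can pair into hybrid receptors, were thus both higher, 1.92-fold and 2.14-fold, while INSRR was below background. The probe named for INS, insulin, read 38.5 and 57.0, with 0.57 ± 0.22. IGFBP7, a related protein of low affinity for IGF, read 71081 and 78239, with 0.14 ± 0.20. IGFALS, which completes the complex that carries IGF in blood, was below background on both arrays.

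The intracellular part of the pathway had ratios closer to 0, apart from a few genes. Of 5 measured adaptors, 0 were past 2-fold. IRS1 had a log2 ratio of 0.12 ± 0.20 and IRS2 -0.27 ± 0.20, while IRS4 was below background. By their brightest probes, the 8 genes of the lipid kinase arm reported here, among them PIK3CA and AKT1, lay between -0.69 and 0.29. Their median was 0.03. Dimmer probes gave 1.165 and -0.12 for AKT2, -0.74 for PIK3CA and 0.13 for PDPK1, so AKT2 was past 2-fold by 1 of its probes. FOXO1, a factor that AKT keeps out of the nucleus, read 17.2 with control siRNA and 10.1 with periostin siRNA, where it was not well above background, at least 1.71-fold lower. Under normexp this bound was close to 0, at -0.074 on the log2 scale. Past 2-fold, 3 of the 33 pathway genes were lower (STC1, ADAM12 and PAPPA), against 6.42% of all genes, and 3 were higher, against 7.97%. The higher ones were INSR, FOXO3 and TSC1, the last a partner of TSC2 in the restraint of mTOR. FOXO3 had a log2 ratio of 1.23 ± 0.20, and its other 2 probes gave 1.14 and 1.01. TSC1 had 1.04 ± 0.20. INSR and TSC1 were no longer past 2-fold under normexp, at 0.84 and 0.97, or with scaling on the median of spots, at 0.97 and 0.91, whereas FOXO3 stayed past it in both. The IGF2 mRNA-binding proteins IGF2BP1, IGF2BP2 and IGF2BP3 lay between -0.31 and 0.22. H19, the imprinted RNA next to IGF2, read 4.38 and 8.26, above background with periostin siRNA alone. Its bound, 1.09-fold higher or 0.13 on the log2 scale, was smaller than the spot error of 0.62, so no direction is given. A second H19 probe was below background on both arrays, at 3.12 and 2.57.

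**Figure D5:**
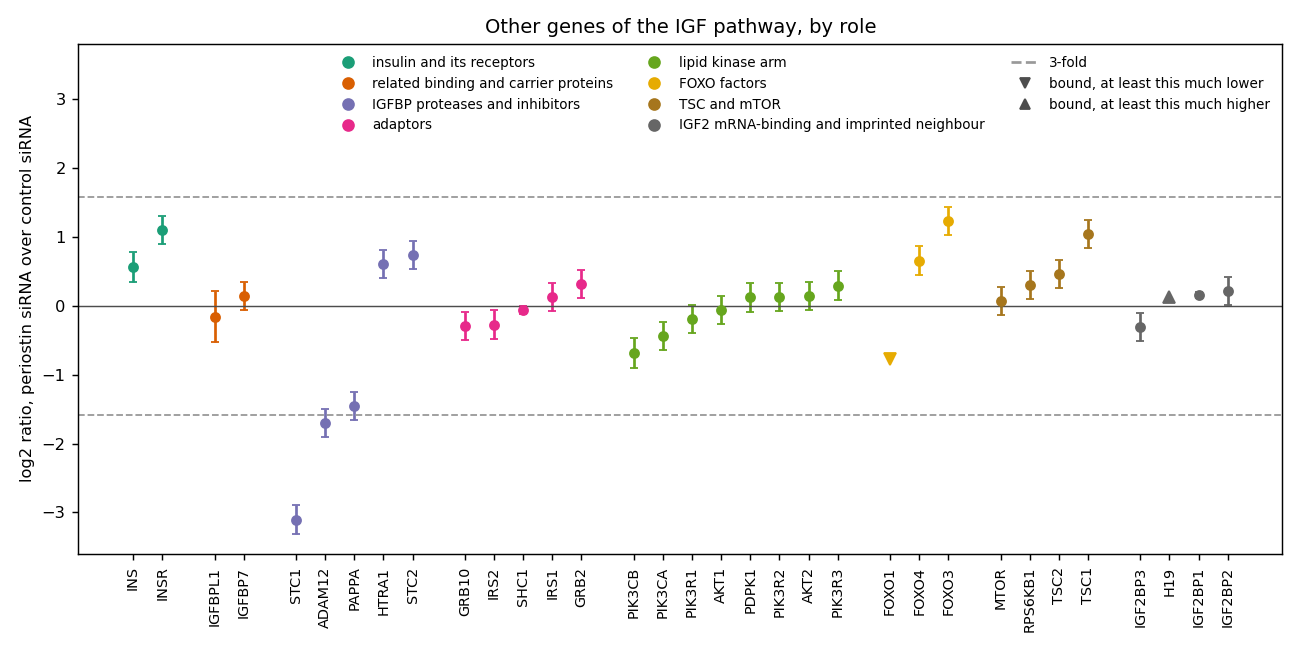
Log2 of the signal with periostin siRNA over that with control siRNA for the 33 measured genes of the wider pathway, grouped by role (colours), with the propagated error of 1 spot or the SD over 10 spots, triangles for bounds and dashed lines at 3-fold. Each gene is shown by its brightest probe. STC1, ADAM12 and PAPPA are the lowest of all, while adaptors and the lipid kinase arm stay within 1 on this scale.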

How the data were processed

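RNA of MRC-5 cells was labelled with Cy3 and hybridized to 1 SurePrint G3 Human array per siRNA; whether cultures were pooled is not given in the sources used here. The authors deposited 1 scanner file per array, whose intensity values Feature Extraction had background-corrected without scaling between arrays. The file headers name version 11.5.1.1 and hg19, and the submitters' processing notes name version 12.0.3.1. A second table of normalized intensity values deposited by the authors was not independent of these, since for the 49697 probes printed once it equalled the scanner intensity times 1 factor per array, within a relative tolerance of 0.001.

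Each array's 75th percentile over 58717 spots without controls (372 for control and 383 for periostin siRNA) was subtracted from its processed signal as log2 values, with spots of a probe averaged on the log2 scale. The brightest probe stood for a gene. A probe with several spots passed as well above background if most or an equal part of them carried the flag. For probes that passed on 1 array, folds written "at least" compare the brighter signal with the array's dimmest passing spot or, where higher, the probe's own dim signal. Genes were named through RefSeq (GRCh38.p14), which matched 65.1% of spots. Promoters came from RefSeq in the same build, and coordinates of the array's probes were not used.

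The number of arrays, 1 per condition, limits the precision. The members and gene lists were chosen with earlier results of these data known. Named were the 10 members, POSTN, pathway genes past 3-fold and 9 others fixed by name (INSR, IRS1, IRS2, PAPPA, STC1, STC2, IGFBP7, FOXO1 and H19). The pathway list leaves out 2 genes that are not reported here. Further genes were named after their values were seen. Scaling and calls were tested on simulated data. Alternatives were normexp (on the median spot brightness), 4 other scalings, the deposited table, other rules for probes and spots, and thresholds of 2-fold and 4-fold. Python 3.11.15, numpy 2.4.6, pandas 2.3.3, R 4.3.3 and limma 3.58.1 were used. The immune marker LYZ could not be named on the array. The qRT-PCR and proliferation experiments were not analysed here.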

Additional observations from a re-analysis of the deposited data

How the results depend on the processing

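No paired analysis was possible because there was 1 array for each siRNA, which also left no replicate to omit. Of the 99 values that the planned settings gave for the 10 members, 92 moved by less than the spot error and 7 by more, and none changed sign. Part of the 92 could hardly have moved. For a gene with 1 probe of 1 spot, other rules for probes and spots left the value as it was, or nearly so, by construction. The deposited table is the scanner signal times 1 factor per array. The normexp correction gave a bound of -0.23 for IGF1 and log2 ratios of -2.00 for IGFBP1, 0.43 for IGFBP2 and -1.26 for IGFBP3. Its offset pulls the ratios of dim spots towards 0 by construction. Scaling on the median gave 0.49 for IGFBP2 and -1.67 for IGFBP3. With it 2 members were lower by more than 3-fold, against 3.27% of all genes. The median of all genes shifted by -0.13 under it and the pathway median became -0.0054. The mean over both IGF1 probes, a mean of opposite bounds, was -0.17, and the IGF1 probe printed 10 times alone, a setting chosen after seeing the data, gave 0.91. No value could be given for IGF1 when probes had to be well above background on both arrays.

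At 2-fold 3 members were lower, IGF1 among them by 1 of its 2 probes, against 6.42% of all genes. At 2-fold 3 pathway genes were higher, against 7.97%. At 4-fold 1 member was lower, and the share of all genes is not given for that threshold. Among pathway genes lower by more than 3-fold, STC1 alone was left, 1 in place of 2, under normexp, under the mean over probes and at 4-fold, where ADAM12 was lost. The share of all genes lower by more than 3-fold was 1.19% under normexp and 2.65% under the mean over probes. Over all genes, normexp gave 190 lower and 143 higher by more than 3-fold, in place of 441 and 541, and the share of higher calls went from 55.1% to 42.9%. Dim probes, IGF1 above all, limit what can be said.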

Other observations

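Genes related to the family by name or by a shared domain were looked at after the values above had been seen. Of 18 such genes on the array, 12 were below background on both arrays, among them IGFL1 to IGFL4, INSL4 to INSL6, the relaxins RLN1 and RLN2 and the relaxin receptors RXFP1 and RXFP2. INSL3 was well above background on both, at 62.9 with control siRNA and 88.1 with periostin siRNA, with a log2 ratio of 0.49. IGFLR1, a receptor for the IGFL proteins, read 398 with control siRNA and 315 with periostin siRNA, and its log2 ratio was -0.34. The matricellular CCN proteins share an IGFBP-like domain. CCN2 read 2588 and 979, with a log2 ratio of -1.40, CCN3 read 4371 and 1729, with -1.34, and CCN1 read 20733 and 15226, with -0.45. IGFBP7-AS1, an RNA antisense to IGFBP7, read 1.63, below background, and 13.5, at least 1.79-fold higher with periostin siRNA.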
